A study of Mus musculus with 2 samples.

Results

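The genes described here encode the proteasome, the protease that degrades ubiquitin-tagged proteins, together with its activators and assembly factors. They were taken from the count table by symbol: every row whose symbol begins with Psma to Psmg followed by a digit, apart from the immunoproteasome genes Psmb8, Psmb9 and Psmb10. The rule matched 47 of the 14886 protein-coding genes in the table. One of them, Psmc3ip, is no proteasome part but a meiotic recombination factor that carries a similar symbol. Ribosome footprints, the short stretches of mRNA that ribosomes shield from nuclease, were counted in cultured lung fibroblasts of the mouse, with 1 library that carries the label IR and 1 that carries NC. The series concerns radiation-induced lung fibrosis and rosmarinic acid, and according to the design text ribosome profiling served to look for target mRNAs. The labels do not spell out IR or NC and name no strain, dose, time or treatment for either library. The protocol in the labels states that the cells of both received cycloheximide, which stalls ribosomes on mRNA. Neither group has a second library, so replicate spread is unknown, no test between the conditions was possible, and each difference reported is one between 2 single libraries.

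The proteasome is built around the 20S core, a barrel of stacked rings. The outer rings are made of alpha subunits, which gate entry, and the inner rings of beta subunits, some of which carry the proteolytic sites. The 19S cap sits on the barrel end: its ATPases unfold the substrate and feed it in, and its other subunits bind ubiquitin chains and remove them. Other activators can replace the cap, and dedicated chaperones help to build the core and the cap. The system clears damaged and oxidised proteins in most cell types, fibroblasts included.

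Sequencing depth, as total counts, was 888835 in IR and 695446 in NC. Footprints of a gene depend on its amount of mRNA and on the ribosomes per mRNA, which cannot be told apart here, nor can fewer cells of a type from less RNA per cell. Counts were scaled with TMM factors. Each fold is IR over NC, with an exact 95% interval for counting error only. No molecular identifiers are mentioned in the protocol, so PCR duplicates may be among the counts and the true error may be larger. Of the 13 fibroblast markers listed, 12 were in the table, with 11431 IR and 8765 NC footprints in all. The fold of that sum was 1.29 with TMM scaling and 1.02 with total-count scaling. These 12 differed among themselves, with 1349 and 222 for Lum and 3526 and 2433 for Fn1. Col3a1 gave 348 IR and 519 NC footprints, and Pdgfra gave 38 and 66. Of 15 epithelial markers 8 were in the table, with 95 IR and 33 NC footprints, of which Abca3 held 73 and 27 and Krt8 held 9 and 1, while Epcam gave 0 IR and 1 NC footprints. Of 11 leukocyte markers 8 were present, with 481 IR and 333 NC footprints. Among them were Cd74 with 244 and 169, Cd14 with 27 and 0 and Ptprc with 8 and 0. Cd3e gave 178 and 157, a TMM-scaled fold of 1.12 whose interval (0.899 to 1.40) held 1. All 9 endothelial markers summed to 6954 in IR and 2717 in NC, but 6842 and 2618 of these came from Emcn. Pecam1 gave 8 IR and 2 NC footprints and Cdh5 gave 1 IR and 0 NC footprints, and Vwf, Tek and Kdr also had more in IR. Tie1 went the other way, with 21 IR and 53 NC footprints, as did Cldn5 with 0 and 5 and Eng with 0 and 2. The 5 mesothelial markers gave 506 IR and 125 NC footprints, of which Wt1 held 417 and 77. The 8 smooth muscle and pericyte markers gave 350 IR and 258 NC footprints and differed among themselves, with 136 and 39 for Synpo2, 35 and 9 for Des, and 0 and 24 for Myh11. Their part in the results on the proteasome was not tested.

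Proteasome genes were, as a group, near the middle of all genes, and their share past 2-fold in each direction was close to that of all genes. Summed over the 47 genes there were 4788 counts in IR and 4433 in NC, which is 0.539% of the IR library (exact 95% interval 0.524 to 0.554) and 0.637% of the NC library (0.619 to 0.656). After TMM scaling this was a fold of 1.07 (1.02 to 1.11), and with total-count scaling it was 0.845, so the direction of the sum is not settled. A single gene, Psme4, also decides it: without Psme4 the TMM-scaled fold was 0.926 (0.886 to 0.969). The median gene of the group gave 42 IR and 57 NC footprints, against 12 in each library for all genes.

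Log2 ratios and genes past a fold were counted above a floor, set at 20 counts as the average of IR and NC, which 38 of the 47 reached. Their median log2 ratio was -0.08, against -0.02 for the 5989 genes of the table above the floor. The interquartile range ran from -0.32 to 0.29, against -0.54 to 0.51 for all genes above the floor. Of the 38, 5 were at least 1.5-fold higher in IR, where 22.3% of all genes above the floor were. Another 6 were at least 1.5-fold lower, where 23.4% of all genes were. The same 5 were also at least 2-fold higher (11.8% of all genes), and 5 were at least 2-fold lower (11.9%). The interval lay wholly above 1-fold for 8 and wholly below it for 7, against 23.5% and 23.7% of all genes, and the other 23 were on neither side. The share past 2-fold was thus close to that of all genes, and the share past 1.5-fold somewhat below it. With total-count scaling 5 remained at least 1.5-fold higher, where 13.3% of all genes above the floor were, and 14 were at least 1.5-fold lower, where 37.8% were. Those shares are close to the ones among the 38. All 5 higher and all 6 lower genes kept their call under that scaling. Of the 5 higher genes, Psmb3, Psmd10 and Psmg4 had under 20 counts in NC and reached the floor only through IR, so they had to differ to be counted.

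**Figure D1:**
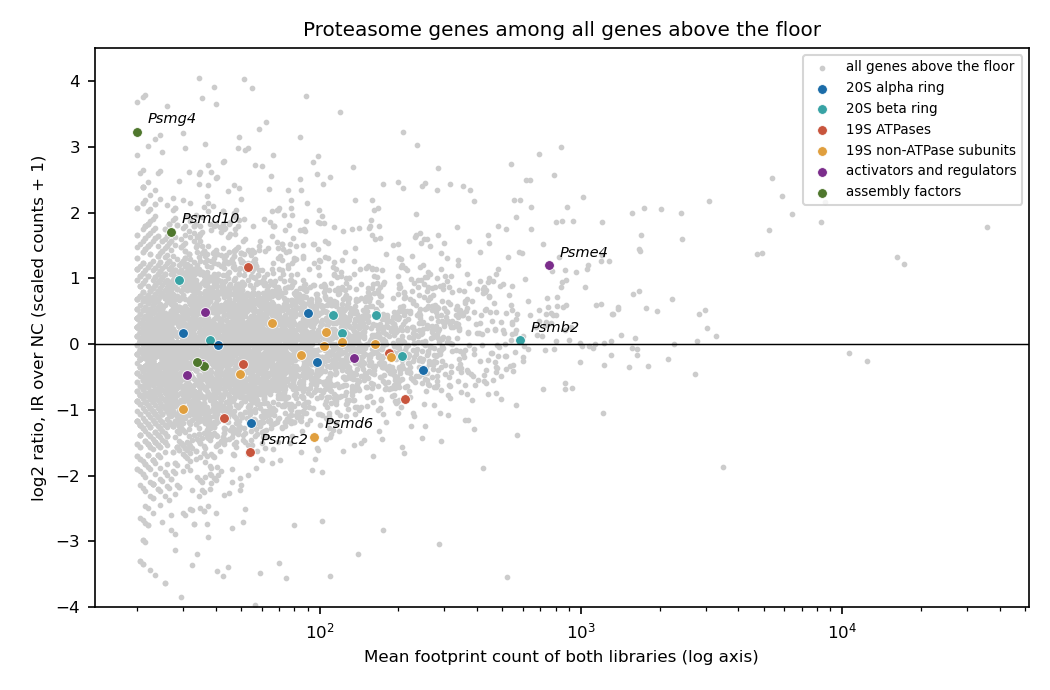
Each grey point is 1 of the 5989 genes above the floor of 20 counts, placed by its mean footprint count in both libraries (x, log axis) and its log2 ratio of IR over NC (y, scaled counts plus a pseudocount of 1), and 28 genes lie outside the y range. Coloured points are the 38 proteasome genes above that floor, by class; most lie close to 0, with Psmg4, Psmd10 and Psme4 above and Psmc2 and Psmd6 below.

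Depth bears on this picture. Of the 15 proteasome genes that averaged 100 counts or more, 1 was at least 1.5-fold higher (Psme4) and 1 at least 1.5-fold lower (Psmc6), where 23.7% and 13.7% of the 1332 genes at that depth were. Their interquartile range ran from -0.19 to 0.18 on the log2 scale, against -0.32 to 0.55 for all genes of that depth. At a mean of 50 to 100 counts, 1 of 9 was at least 1.5-fold higher and 3 were lower, where 19.3% and 20.4% of all genes were. At 20 to 50 counts the numbers were 3 and 2 of 14, where 23.1% and 29.0% of all genes were. Among the genes of that family with the most counts, Psme4 and Psmc6 were thus the only ones past 1.5-fold.

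**Figure D2:**
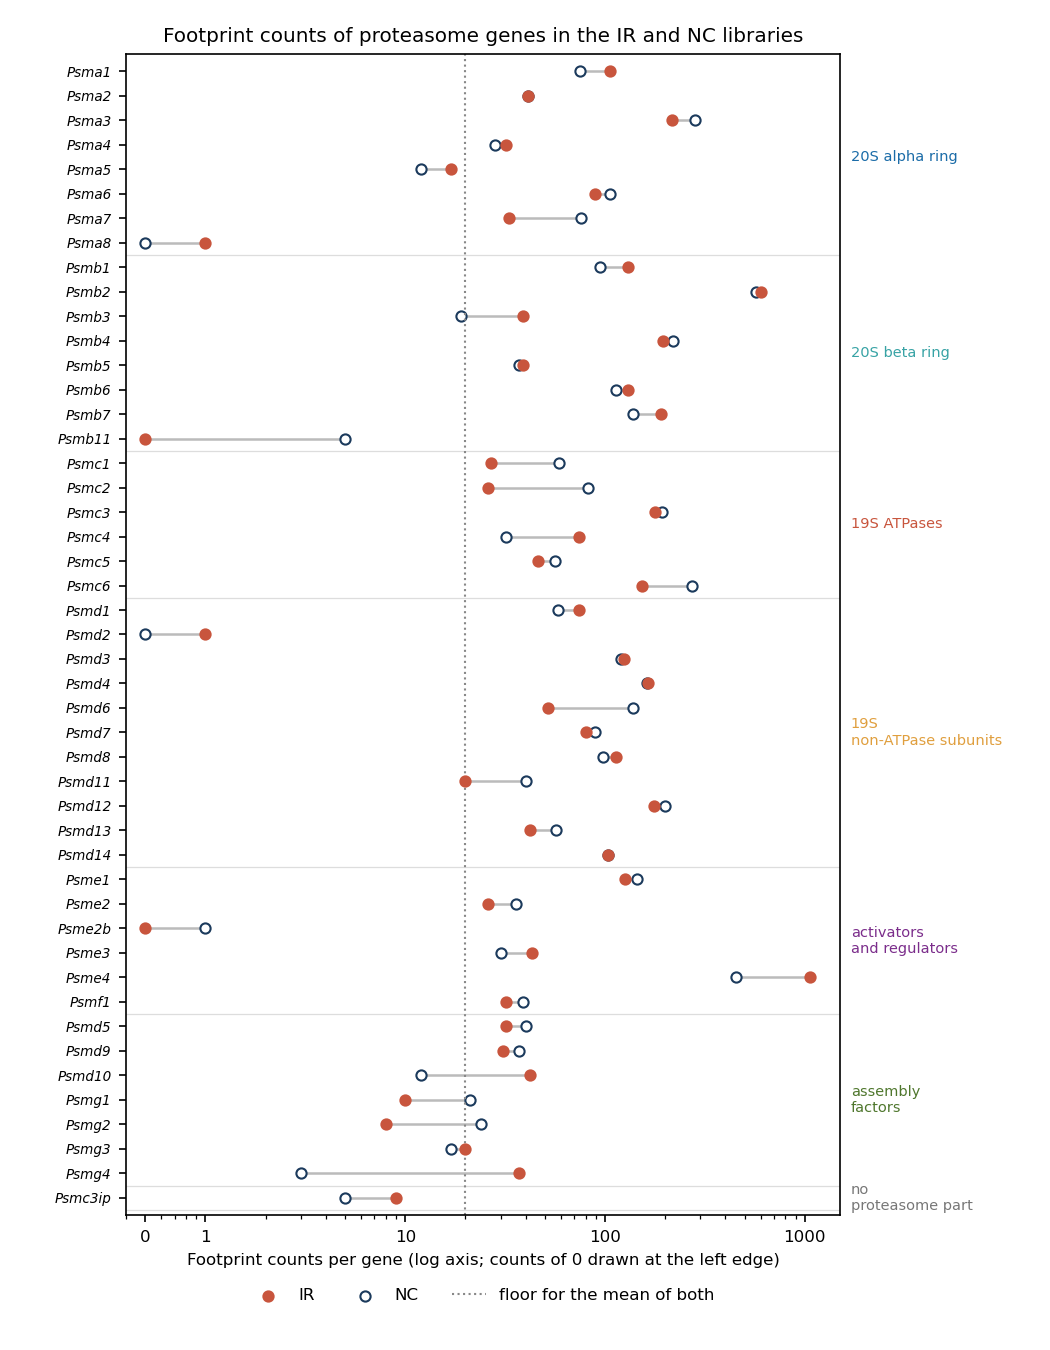
Footprint counts (x, log axis, counts of 0 at the left edge) of each of the 47 genes in the IR library (filled) and the NC library (open), grouped by class, with the dotted line at a count of 20. For most 20S and 19S genes the points lie side by side, and the widest gaps among genes above the floor are those of Psmg4, Psmd10, Psmc2, Psmd6 and Psme4.

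Among the alpha subunits of the 20S core, Psma7 was the only gene past 1.5-fold. Of 8 genes, 6 were above the floor, and their median log2 ratio was -0.14, in a range of -1.20 to 0.48. The interval lay above 1 for 1 gene and below 1 for 2, against 23.5% and 23.7% of all genes above the floor. Psma7 gave 33 IR and 76 NC footprints (fold 0.429, interval 0.276 to 0.654). It lies on chromosome 2 at 180036373 to 180042433 (mm10). Psma3, the alpha gene with the most counts, gave 216 IR and 281 NC footprints (fold 0.759, interval 0.633 to 0.910). Psma1 went the other way, with 106 IR and 75 NC footprints (fold 1.40, interval 1.03 to 1.9). All 3 are subunits of the same ring, and their folds lay on both sides of 1.

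Psma6 gave 89 IR and 106 NC footprints (fold 0.829, interval 0.619 to 1.11). Psma2 gave 41 IR and 41 NC footprints (fold 0.988, interval 0.625 to 1.56), and Psma4 gave 32 IR and 28 NC footprints (fold 1.13, interval 0.659 to 1.95). The intervals of these 3 folds all held 1 under TMM scaling. Psma5 gave 17 IR and 12 NC footprints, below the floor. Psma8, the testis form of Psma7, had 1 count in IR and 0 in NC. The class as a whole gave 535 IR and 619 NC footprints (fold 0.854, interval 0.759 to 0.960), and 0.676 with total-count scaling.

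Beta subunits leaned the other way under TMM scaling, and no gene had an interval below 1. Of 8 genes, 7 passed the floor, and their median log2 ratio was 0.17, in a range of -0.18 to 0.98. That range held 0, as did that of the alpha subunits. The interval lay above 1 for 3 of them and held 1 for 4. Of all genes above the floor, 23.5% had an interval above 1 and 23.7% had one below 1. The class as a whole gave 1327 IR and 1194 NC footprints (fold 1.10, interval 1.01 to 1.19), which became 0.870 with total-count scaling. Psmb3, a structural subunit, was the only beta gene past 1.5-fold, with 39 IR and 19 NC footprints (fold 2.03, interval 1.14 to 3.72). Psmb1, another structural subunit, gave 130 IR and 94 NC footprints (fold 1.37, interval 1.04 to 1.80). Psmb2, which made up 12.6% of the counts of the 47 genes in IR (11.6 to 13.5) and 12.8% in NC (11.8 to 13.8), gave 602 IR and 568 NC footprints (fold 1.05, interval 0.932 to 1.18). Psmb4 gave 196 IR and 219 NC footprints (fold 0.884, interval 0.725 to 1.08).

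The 3 catalytic subunits of the standard core were present in both libraries. Psmb5, which carries the chymotrypsin-like site, gave 39 IR and 37 NC footprints (fold 1.04, interval 0.647 to 1.68). Psmb6, which carries the caspase-like site, gave 130 IR and 114 NC footprints (fold 1.13, interval 0.869 to 1.46). Psmb7, which carries the trypsin-like site, gave 191 IR and 138 NC footprints (fold 1.37, interval 1.09 to 1.71). Psmb7 overlaps Nek6 on the opposite strand, which gave 14 IR and 47 NC footprints, and the strand setting of the counting is not given in the sources used here. Summed, the 3 genes gave 360 IR and 289 NC footprints (fold 1.23, interval 1.05 to 1.44), which became 0.975 with total-count scaling.

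Their immunoproteasome counterparts, which replace them after interferon exposure and were left out of the 47 genes, stood lower or on neither side. Psmb8, the counterpart of Psmb5, gave 93 IR and 141 NC footprints (fold 0.652, interval 0.496 to 0.853). Psmb9 gave 15 IR and 21 NC footprints and Psmb10 gave 22 IR and 12 NC footprints, both below the floor. Psmb11, the beta subunit of cortical thymic epithelium, gave 0 IR and 5 NC footprints. The counting interval of the Psmb11 fold reaches 1.08, so a difference was not detectable at this depth.

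The 19S ATPases were divided. All 6 passed the floor. The interval lay below 1 for 3 and above 1 for 1, against 23.7% and 23.5% of all genes above the floor. The median log2 ratio was -0.57, in a range of -1.64 to 1.17. The class as a whole gave 503 IR and 692 NC footprints (fold 0.718, interval 0.639 to 0.807), 0.821 without Psmc6 and 0.569 with total-count scaling. The ATPases form a ring from 3 dimers, each with its own assembly chaperone: Psmc1 with Psmc2, Psmc4 with Psmc5, and Psmc3 with Psmc6.

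In the first dimer both partners were lower in IR. Psmc2, on chromosome 5 at 21785283 to 21803787, gave 26 IR and 82 NC footprints (fold 0.313, interval 0.193 to 0.492), the lowest of the 38 genes. Psmc1 gave 27 IR and 59 NC footprints (fold 0.452, interval 0.276 to 0.724). Psmd5, the chaperone that binds this dimer, gave 32 IR and 40 NC footprints (fold 0.790, interval 0.481 to 1.29), whose interval holds 1.

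In the second dimer the partners differed. Psmc4 gave 74 IR and 32 NC footprints (fold 2.28, interval 1.49 to 3.58), whereas Psmc5 gave 46 IR and 56 NC footprints (fold 0.812, interval 0.537 to 1.22). The 2 intervals did not overlap. Psmd10, known as gankyrin, binds this dimer through Psmc4 and is also studied as an oncoprotein that acts on p53 and the retinoblastoma protein. The gene is on the X chromosome, 140948429 to 140956728, and gave 42 IR and 12 NC footprints (fold 3.46, interval 1.79 to 7.21).

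In the third dimer Psmc6 was lower, with 153 IR and 271 NC footprints (fold 0.558, interval 0.454 to 0.683). Psmc3 gave 177 IR and 192 NC footprints (fold 0.911, interval 0.738 to 1.12). Psmc3 overlaps Slc39a13 on the opposite strand, which gave 72 IR and 25 NC footprints. Psmd9, the chaperone of this dimer, gave 31 IR and 37 NC footprints (fold 0.828, interval 0.497 to 1.37). With TMM scaling, 1 of the partners thus had an interval that left out 1.

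**Figure D3:**
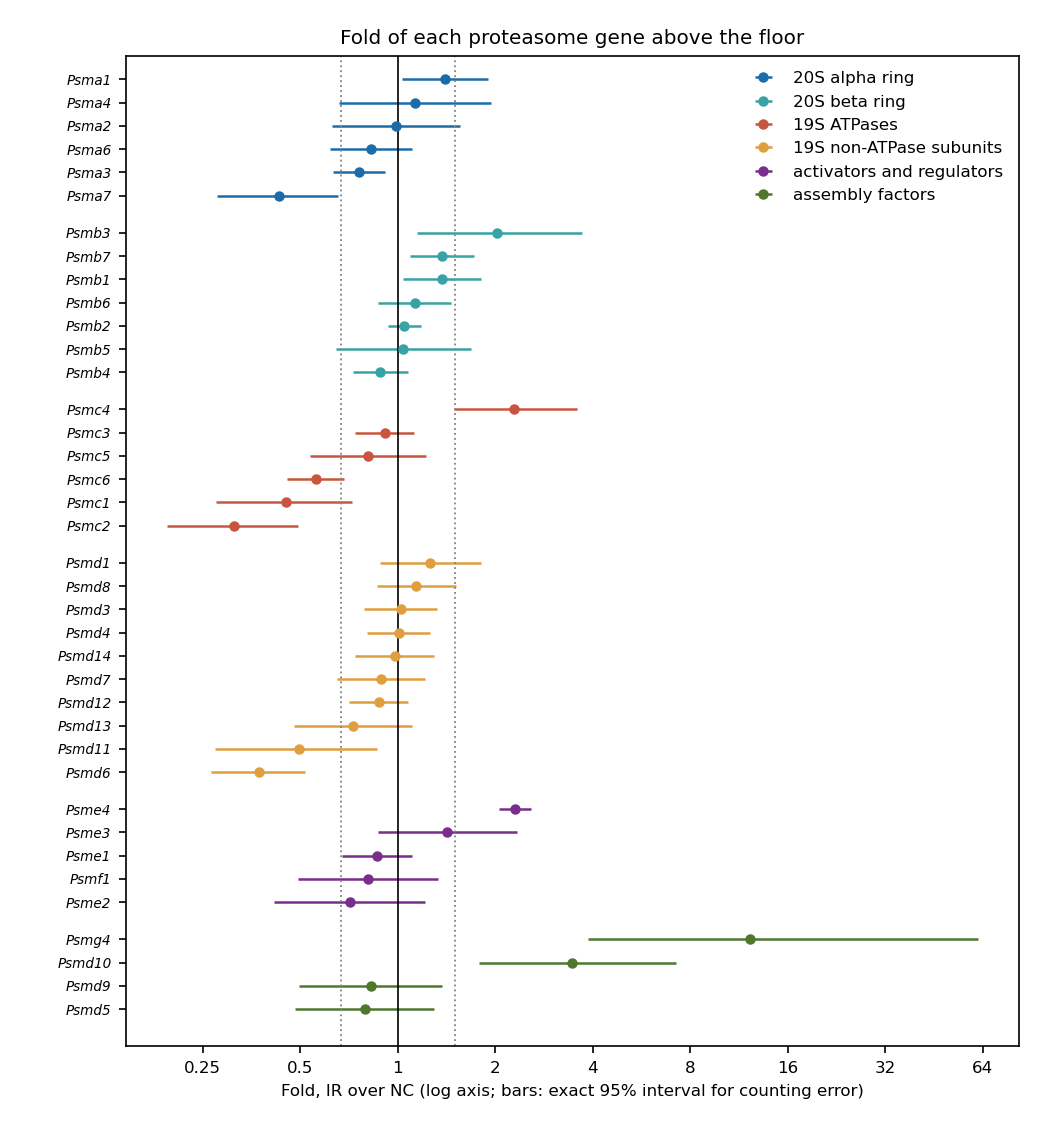
Fold of IR over NC (x, log axis) of each of the 38 genes above the floor, sorted within its class, with the exact 95% interval for counting error; dotted lines mark 1.5-fold in each direction. Most intervals cross 1; Psmc1, Psmc2, Psmc6, Psma7, Psmd6 and Psmd11 lie below the lower line and Psmb3, Psmc4, Psme4, Psmd10 and Psmg4 above the upper one.

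Among the other 19S subunits most intervals held 1 under TMM scaling. Those of 2 lid subunits lay below 1, which is near the share of all genes. Of 11 genes, 10 passed the floor, and their median log2 ratio was -0.10. The interval lay below 1 for 2 of them and above 1 for 0, against 23.7% and 23.5% of all genes above the floor. The class as a whole gave 950 IR and 1065 NC footprints (fold 0.881, interval 0.807 to 0.963), and 0.698 with total-count scaling. Psmd6, a lid scaffold subunit on chromosome 14 at 14112184 to 14120984, gave 52 IR and 138 NC footprints (fold 0.372, interval 0.265 to 0.516). Psmd11, another lid scaffold subunit, gave 20 IR and 40 NC footprints (fold 0.494, interval 0.274 to 0.865). Apart from these, Psmd13 had the lowest fold of the lid, with 42 IR and 57 NC footprints (fold 0.728, interval 0.477 to 1.10). It overlaps Sirt3 on the opposite strand, which gave 98 IR and 5 NC footprints.

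For 3 subunits that handle ubiquitin, picked out after their values were seen, the intervals held 1 under TMM scaling. Psmd4, a ubiquitin receptor, gave 165 IR and 162 NC footprints (fold 1.01, interval 0.805 to 1.26). Psmd14, the deubiquitinase of the lid, gave 103 IR and 104 NC footprints (fold 0.978, interval 0.738 to 1.30). Psmd7, its partner, gave 80 IR and 89 NC footprints (fold 0.888, interval 0.648 to 1.21). An interval that holds 1 does not show equal footprint counts, and for Psmd4 it leaves room for a difference of up to 1.26-fold.

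Of the lid scaffold subunits, Psmd3 gave 124 IR and 120 NC footprints (fold 1.02, interval 0.788 to 1.32), and Psmd12 gave 176 IR and 199 NC footprints (fold 0.874, interval 0.709 to 1.08). Psmd8 gave 113 IR and 98 NC footprints (fold 1.14, interval 0.861 to 1.51), and Psmd1, the large scaffold of the base, gave 74 IR and 58 NC footprints (fold 1.26, interval 0.882 to 1.81). All 4 intervals held 1 under TMM scaling. Psmd2, the other large scaffold and a docking site for ubiquitin receptors, had only 1 count in IR and 0 in NC. It is an essential subunit of the cap, and its near absence from both libraries sets it apart from the rest of the class, whose other members had between 20 and 176 counts in IR and between 40 and 199 in NC. Handling of reads with several matches is not given in the sources used here, and why Psmd2 is near 0 was not tested.

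Among the activators Psme4 stood alone. The class as a whole gave 1284 IR and 704 NC footprints (fold 1.80, interval 1.64 to 1.98), but without Psme4 the sums were 227 and 250, a fold of 0.897 (0.746 to 1.08). Psme4 encodes PA200, a large nuclear activator that caps the core without ATP and is known for its part in histone degradation during DNA repair and in spermatogenesis. Its gene is on chromosome 11, 30771726 to 30880361. Psme4 gave 1057 IR and 454 NC footprints (fold 2.30, interval 2.06 to 2.57). Psme4 thus made up 22.1% of the counts of the 47 genes in IR (20.9 to 23.3) and 10.2% in NC (9.36 to 11.2). These are shares of counts and not levels per length, since coding lengths were not used. With total-count scaling its fold was 1.82. Of the 5989 genes above the floor, 91.7% had a lower log2 ratio than Psme4.

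The PA28 activators, which open the core for peptides, had intervals that held 1 under TMM scaling. Psme1 and Psme2 are the interferon-inducible partners of 1 ring. Psme1 gave 126 IR and 144 NC footprints (fold 0.864, interval 0.675 to 1.11), and Psme2 gave 26 IR and 36 NC footprints (fold 0.714, interval 0.414 to 1.21). Psme1 overlaps Emc9, which gave 7 IR and 10 NC footprints. Psme3, the nuclear form, gave 43 IR and 30 NC footprints (fold 1.42, interval 0.868 to 2.34). Psmf1, a regulator that binds the core, gave 32 IR and 39 NC footprints (fold 0.811, interval 0.492 to 1.33), and Psme2b gave 0 IR and 1 NC footprints. With TMM scaling no interval among them left out 1, so within the class Psme4 was the only gene whose interval did. With total-count scaling the fold of Psme1 was 0.685.

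**Figure D4:**
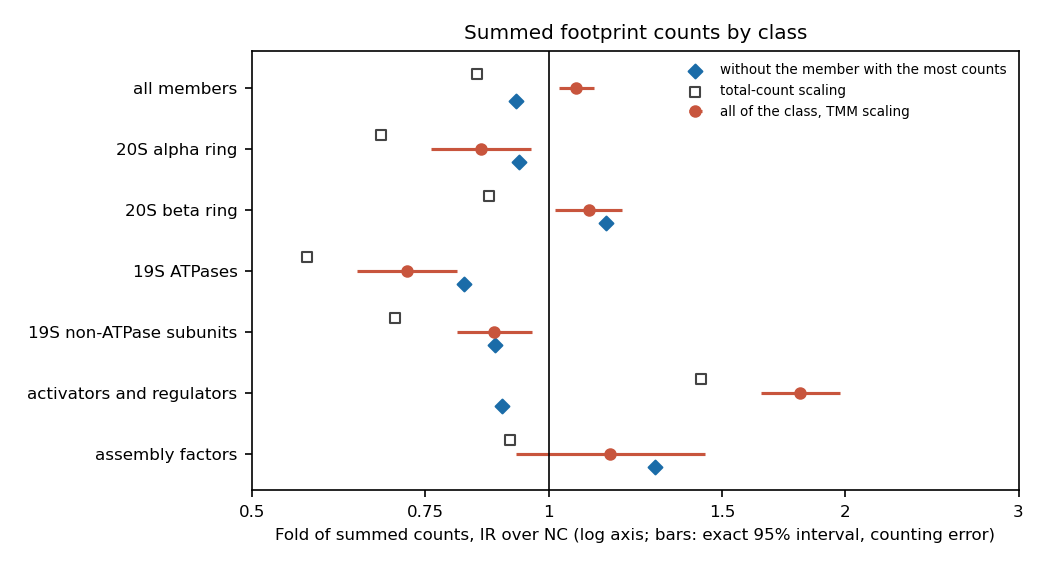
Fold of summed counts (x, log axis, IR over NC) for all 47 genes and for each class, with the exact 95% interval for counting error (circles), without the gene that has the most counts (diamonds) and with total-count scaling (squares). Activators move across 1 when Psme4 is left out, whereas the 19S ATPases, the alpha subunits and the other 19S subunits lie below 1 in all 3 forms.

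The 20S assembly factors were the most sparsely counted. Psmg1 and Psmg2 form a dimer that helps to arrange the alpha ring. Psmg1 gave 10 IR and 21 NC footprints (fold 0.470, interval 0.198 to 1.04), and Psmg2 gave 8 IR and 24 NC footprints (fold 0.329, interval 0.128 to 0.758). Both lay below the floor, and the interval left out 1 for Psmg2 but not for Psmg1. Psmg3 and Psmg4 form a second dimer. Psmg3 gave 20 IR and 17 NC footprints (fold 1.16, interval 0.578 to 2.36). Psmg4, on chromosome 13 at 34162964 to 34178172, gave 37 IR and 3 NC footprints (fold 12.2, interval 3.86 to 61.8). The interval of Psmg4 is wide. The 4 assembly factors above the floor (Psmg4, Psmd10, Psmd9 and Psmd5) had a median log2 ratio of 0.72, whereas all 7, with no floor, had one of -0.26. Psmc3ip gave 9 IR and 5 NC footprints.

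Sequences upstream of the start sites are shown for 4 genes past 2-fold and for Psmb5, because proteasome genes are known to be induced together by the factor Nrf1 through the antioxidant response element. RefSeq promoter sequences (GRCm38.p6) matched 39 of the 47 genes; Psma8, Psmb1, Psmb2, Psmb7, Psmc3, Psmd3, Psmd7 and Psmg2 are named only. The 250 bases before the start nearest to that of the table were searched on both strands for TGACNNNGC (antioxidant response element), CCAAT (bound by NF-Y) and CCGGAAG (the core of an ETS site). Capitals mark these matches, on either strand, and each sequence reads 5′ to 3′ on the strand of the gene. The windows are chr11:30771525-30771774 (plus strand) for Psme4, chrX:140956712-140956961 (minus) for Psmd10, chr5:21785025-21785274 (plus) for Psmc2, chr14:14120946-14121195 (minus) for Psmd6 and chr14:54617996-54618245 (minus) for Psmb5.
Psme4: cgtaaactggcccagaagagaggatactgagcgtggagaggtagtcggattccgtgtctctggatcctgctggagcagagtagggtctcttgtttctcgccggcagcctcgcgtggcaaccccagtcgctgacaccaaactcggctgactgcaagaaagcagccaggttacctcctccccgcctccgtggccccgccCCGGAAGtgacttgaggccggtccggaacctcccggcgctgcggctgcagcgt
Psmd10: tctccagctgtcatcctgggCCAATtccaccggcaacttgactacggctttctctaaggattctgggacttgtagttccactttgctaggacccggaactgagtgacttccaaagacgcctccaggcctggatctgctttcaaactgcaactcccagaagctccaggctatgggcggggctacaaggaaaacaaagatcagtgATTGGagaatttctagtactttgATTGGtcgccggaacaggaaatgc
Psmc2: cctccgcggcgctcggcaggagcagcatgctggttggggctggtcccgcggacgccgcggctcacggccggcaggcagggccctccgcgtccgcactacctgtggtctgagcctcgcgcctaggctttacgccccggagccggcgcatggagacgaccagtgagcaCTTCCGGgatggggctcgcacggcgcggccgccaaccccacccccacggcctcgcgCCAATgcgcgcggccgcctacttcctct
Psmd6: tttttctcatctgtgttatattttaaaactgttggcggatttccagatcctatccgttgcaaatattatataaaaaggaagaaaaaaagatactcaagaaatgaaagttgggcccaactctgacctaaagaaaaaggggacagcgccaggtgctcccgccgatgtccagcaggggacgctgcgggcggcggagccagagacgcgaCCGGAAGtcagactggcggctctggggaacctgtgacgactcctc
Psmb5: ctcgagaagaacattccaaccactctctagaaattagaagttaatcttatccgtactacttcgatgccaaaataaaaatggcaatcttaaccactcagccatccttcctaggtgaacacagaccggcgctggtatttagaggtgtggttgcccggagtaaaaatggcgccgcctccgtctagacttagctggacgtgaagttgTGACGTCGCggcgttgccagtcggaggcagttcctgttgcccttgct

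The antioxidant response element was found in 5 of the 39 promoters (12.8%), against 11.7% of the 11033 genes of the table with a promoter. The 5 were those of Psmb5, Psmb6, Psmc6, Psmd9 and Psmd12, of which Psmc6 alone was past 1.5-fold. A CCAAT box was found in 14 (35.9%), against 36.0% of all. The ETS core was found in 12 (30.8%), against 11.9% of all. It occurs in the promoters of Psmc1, Psmc2, Psmd6 and Psmd11, 4 of the 5 genes at least 2-fold lower, and in that of Psme4, 1 of the 5 at least 2-fold higher. Over all genes with a promoter and above the floor, it was found in 14.4% of those at least 2-fold lower, 12.8% of those at least 2-fold higher and 15.1% in all. The CCAAT box was found in 3 of the 5 lower and 2 of the 5 higher proteasome genes, and the antioxidant response element in 0 of either. With 5 genes on each side, these counts are a description only. No matches of different motifs overlapped in these windows. A match of letters is not a binding site, and promoters say nothing of ribosomes on the mRNA.

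Genes that work with the proteasome went in both directions too. Of 10 associated factors in the table, 8 passed the floor, and their median log2 ratio was -0.14. The interval lay above 1 for 1 and below 1 for 3, against 23.5% and 23.7% of all genes above the floor. Usp14, a deubiquitinase that docks on the 19S cap, gave 199 IR and 108 NC footprints (fold 1.82, interval 1.43 to 2.32). Txnl1, a thioredoxin-like protein of the cap, gave 34 IR and 86 NC footprints (fold 0.391, interval 0.255 to 0.587). Akirin2, which brings proteasomes into the nucleus, gave 17 IR and 41 NC footprints (fold 0.410, interval 0.218 to 0.737), and Zfand5 gave 66 IR and 93 NC footprints (fold 0.701, interval 0.504 to 0.972). Shfm1, the small lid subunit now named Sem1, gave 143 IR and 118 NC footprints, and Adrm1, a ubiquitin receptor, gave 8 IR and 10 NC footprints. Pomp, the chaperone of core maturation, gave 32 IR and 19 NC footprints (fold 1.66, interval 0.915 to 3.11).

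Of the factors that control proteasome gene expression or feed it with substrates, folds lay on both sides of 1. Nfe2l1, which encodes Nrf1, gave 158 IR and 200 NC footprints (fold 0.780, interval 0.629 to 0.966). Vcp, the ATPase that extracts ubiquitinated proteins and also releases Nrf1 from the endoplasmic reticulum, gave 20 IR and 41 NC footprints (fold 0.482, interval 0.267 to 0.842). Of the 7 genes listed around Nrf1, 4 passed the floor. The interval lay below 1 for 2 (Nfe2l1 and Vcp) and above 1 for 0, against 23.7% and 23.5% of all genes above the floor. Nfe2l2, with 53 IR and 48 NC footprints (fold 1.09), and Nploc4, with 60 and 60 (fold 0.988), had intervals that held 1. Rad23b, which carries ubiquitinated proteins to the cap, gave 148 IR and 95 NC footprints (fold 1.54, interval 1.18 to 2.01). Ubb, a polyubiquitin gene, gave 232 IR and 226 NC footprints.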

How the data were processed

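The deposited table gives whole-number counts of mapped reads per protein-coding gene for the IR and the NC library, per the file headers. Coordinates are those of mm10, the build in the submitters' processing notes, which also list HTSeq 0.9.1 and cutadapt 1.9.3 along with the aligners TopHat2 and Bowtie and the packages DESeq2 and edgeR, without saying what each did. Which annotation was used, whether strand was considered, which footprint lengths were kept and how multi-mapping reads were treated is not given in the sources used here. The 2 columns of log2 CPM that the authors also deposited were not used.

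The groups came from the sample titles. The genes and lists were chosen with earlier results of these data known, and so were the rules. Library sizes were multiplied by TMM factors of 0.890 for IR and 1.12 for NC (R 4.3.3, edgeR 4.0.16). Folds are ratios of scaled counts, and their intervals were converted from Clopper-Pearson (exact binomial) limits for the share of IR. Log2 ratios carry a pseudocount of 1. A count of 0 allows up to 3 counts, or 3.79 CPM in IR and 3.84 CPM in NC. Intervals and that limit cover counting error only. Psmd5, Psmd9 and Psmd10 were counted as assembly factors and not as 19S subunits. Values with intervals are given for the 3 highest and 3 lowest folds of each class (all of a class of 6 or fewer) and for the catalytic subunits; Psmd4, Psmd7, Psmd12, Psmd14 and the genes below the floor were added after their values were seen. The interval procedure was run on simulated counts that held counting error only, so that run says nothing of duplicates or replicate spread. All 47 symbols are in RefSeq's GRCm38.p6 gene table, and 46 starts lay within 5000 bp of it. Some genes of the ubiquitin supply and shuttle list, and its summary, are not reported here. Levels per coding length were planned but not computed, because no coding lengths were at hand. Other scalings, floors, pseudocounts and left-out genes were tried. Python 3.11.15 was used with scipy 1.17.1 and numpy 2.4.6 for intervals, pandas 2.3.3 for tables and matplotlib 3.10.9 for figures.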

Additional observations from a re-analysis of the deposited data

How the results depend on the processing

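Other scalings, floors, pseudocounts and summaries were tried for the sums, medians and counts of genes past a fold. Total-count scaling lowered the median log2 ratio of all genes above the floor by 0.32, and under it the median of the proteasome genes was -0.42 and that of the activators -0.54, against -0.08 and -0.21 with TMM. With that scaling the fold of summed counts was 0.845 for all genes, 0.676 for alpha subunits, 0.870 for beta subunits, 0.569 for 19S ATPases, 0.698 for other 19S subunits, 1.43 for activators and 0.915 for assembly factors. It left 14 genes at least 1.5-fold lower, 2 at least 2-fold higher, and 4 and 18 with intervals wholly above and below 1-fold, where all genes above the floor gave 37.8%, 7.03%, 13.1% and 39.1%. DESeq2 size factors and upper-quartile scaling gave equal library sizes here and moved none of the sums, medians or counts beyond its interval or by over 1.5 times. Without its gene with the most counts, the sum had a fold of 0.926 for all genes, 0.821 for 19S ATPases and 0.897 for activators, where the last lies on the other side of 1. Without genes that overlap another gene, the activator sum had a fold of 2.05. With no floor, the assembly factor median was -0.26 in place of 0.72. With a floor of 50 counts, 2 genes were at least 1.5-fold higher, 2 at least 2-fold higher, 3 at least 2-fold lower and 5 had intervals wholly above 1-fold. With a floor of 100 counts, 1 was at least 1.5-fold higher, 1 at least 1.5-fold lower, 1 at least 2-fold higher and 0 at least 2-fold lower, and 3 and 2 had intervals wholly above and below 1-fold. Fewer genes are tested at these floors. The other 118 of these values kept within the interval of their result or within 1.5 times of its count. Leaving out Psmc3ip or counting all Psmd genes as 19S subunits, both chosen after seeing the data, is among those 118. No paired analysis was possible because each group has 1 library. Depth limits most genes: at 26 and 82 counts the interval of Psmc2 spans 0.193 to 0.492.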

Other observations

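The cytosolic chaperonin CCT, another large complex of ring-forming subunits that is made in all cells, gives a second view of how subunits of 1 complex compared between these libraries. Of 9 genes in the table, 8 passed the floor, and their median log2 ratio was -0.17. The interval lay above 1 for 1 and below 1 for 4, against 23.5% and 23.7% of all genes above the floor. Cct4 gave 2307 IR and 1607 NC footprints (fold 1.42, interval 1.33 to 1.51), and Tcp1 gave 110 IR and 248 NC footprints (fold 0.438, interval 0.347 to 0.551). The other 6 had folds between 0.662 for Cct6a and 1.16 for Cct8. The SD of the log2 ratio was 0.53 over the 8 chaperonin genes and 0.98 over all genes above the floor. Over the 38 proteasome genes it was 0.88. These differ in depth, since all 8 chaperonin genes averaged at least 100 counts and many of the 38 did not. Among genes that averaged at least 100 counts, the SD was 0.45 over 15 proteasome genes and 0.95 over all 1332 genes. At that depth the proteasome value was thus below the 0.53 of the chaperonin. By class, over the genes above the floor, the SD was 0.97 over the 6 proteasomal ATPases, 0.54 over the other 19S subunits and 0.58 over the alpha subunits. It was 0.38 over the 7 beta subunits and 0.69 over the activators. Over the 4 assembly factors above the floor it was 1.72, but Psmg4 and Psmd10 reached that floor only through IR. Psmg1 and Psmg2, with fewer counts in IR, and Psmg3 were left out by the floor. These SDs include counting error, which is larger for genes with fewer counts, and no test compares them.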
